A study of Mus musculus with 82 samples.

Results

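The genes described here encode 32 subunits of the receptors for glutamate and GABA, the main excitatory and inhibitory transmitters of the brain. They were taken from a named list and matched by symbol to the gene identifiers of the count table, where all 32 were found among 48795 identifiers. They fall into 6 classes: AMPA (Gria1 to Gria4), kainate (Grik1 to Grik5), NMDA (Grin1, Grin2a to Grin2d and Grin3a), metabotropic glutamate (Grm2 to Grm5, Grm7 and Grm8), GABA-A (Gabra2 to Gabra5, Gabrb1, Gabrb2, Gabrg1, Gabrg3 and Gabrd) and GABA-B (Gabbr1 and Gabbr2). The mouse brain RNA came from tissue cut out by laser from cortex or white matter. Ribosome-bound RNA was immunoprecipitated from the lysate to enrich for astrocytes (IP libraries), and RNA of the lysate itself was sequenced as input. There were 5 IP libraries for each of stroke zones 1 to 5 in each region, 3 libraries each of IP and input from stroke zones 1 to 3 together in each region, and 5 IP and 5 input libraries of uninjured tissue in each region, 82 in all. The uninjured animals are also labelled sham, and the stroke is labelled by region (cortical or white matter). Strain, age, sex, Cre driver, time after stroke and the width or place of a zone are absent from the labels, as is the animal behind each library, so the p-values below measure the spread between libraries, which may be partly technical.

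AMPA, kainate and NMDA receptors are ion channels assembled from several subunits and opened by glutamate. Metabotropic glutamate receptors act through G proteins, with Grm5 coupled to calcium release and Grm2, Grm3, Grm4, Grm7 and Grm8 coupled to inhibition of adenylate cyclase. GABA-A receptors are chloride channels, and the GABA-B receptor is a heterodimer of the Gabbr1 and Gabbr2 products that acts through G proteins. Neurons express nearly all of these genes, while Grm3, Grm5, Grin2c, Gabrg1, Gabbr1 and Gabbr2 are also known in astrocytes, and oligodendrocyte precursors carry several AMPA and kainate subunits.

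Levels are given as CPM (counts per 1000000 counts) over the counts outside mt-Rnr1, mt-Rnr2, Gm42418, CT010467.1, Gm23935 and Lars2, which together took 67.3% to 94.3% of a library. The remaining counts numbered 389889 to 5708700 per library (median 2487444). In 5 libraries the remaining counts were under 1000000 or the genes detected were under 10000: zone 1 cortex IP replicate 1, zone 1 white matter IP replicates 1 and 5, zone 3 white matter IP replicate 1 and zone 5 white matter IP replicate 3. The summed level of 10 astrocyte markers was 3939 to 7670 CPM in uninjured cortex IP and 1467 to 3309 CPM in uninjured cortex input. That of 11 neuron markers was 10273 to 16214 CPM in uninjured cortex IP and 4852 to 16236 CPM in uninjured cortex input, so the IP libraries of cortex still held neuronal RNA at the level of the input. In white matter the neuron sum was 676 to 1851 CPM in uninjured IP and 475 to 809 CPM in uninjured input, and 7 oligodendrocyte markers summed to 23257 to 43058 CPM in uninjured IP. Input libraries of cortex also carried counts on 1837 olfactory and vomeronasal receptor genes, at 45.5 to 114.4 CPM in uninjured IP and 1280 to 7449 CPM in uninjured input.

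Among the uninjured cortex IP libraries, mean levels per kilobase of exon placed the GABA-B pair first. Gabbr2 averaged 84.0 ± 10 CPM per kb and Gabbr1 averaged 61.6 ± 8.95 CPM per kb (SD, n = 5). They were followed by Grin2b, an NMDA subunit that binds glutamate, at 50.3 ± 6.58, and Grin1, the obligatory NMDA subunit, at 49.8 ± 5.85 CPM per kb, whose ranges overlapped. The range of Gabbr1 overlapped those of Gabbr2, Grin2b, Grin1 and Grm3. Grm3 averaged 45.8 ± 4.65, Gria2 44.1 ± 9.0 and Gria1 42.5 ± 4.92 CPM per kb, and the ranges of these 3 genes overlapped too. Gabrg1 and Grin2d were lowest, at 1.05 ± 0.416 and 1.67 ± 0.647 CPM per kb. In uninjured white matter IP the order differed: Grm3 stood first at 78.2 ± 12.9 CPM per kb, Gabbr1 next at 39.4 ± 14.5 and Grik5, a kainate subunit that needs a partner to form a channel, after it at 10.6 ± 1.86 CPM per kb.

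Immunoprecipitated RNA was first set against input, which asks which receptor transcripts the ribosome pull-down enriched. The labels give IP libraries as polyA RNA and input libraries as total RNA, so by the labels the pull-down and the kind of RNA cannot be told apart. The 6 genes set aside, mt-Rnr1 and mt-Rnr2 among them, took 83.7% to 94.07% of uninjured cortex IP and 82.43% to 90.03% of input. In uninjured white matter they took 77.07% to 88.03% of IP and 67.28% to 72.22% of input. Whether the kinds of RNA differed as labelled was not tested. In uninjured cortex 6 of 32 subunits were higher and 8 were lower in IP than in input (edgeR's quasi-likelihood test, Benjamini-Hochberg adjusted p under 0.05 over all 11280 genes tested). Of all genes tested 25.3% were called, 12% higher and 13.4% lower. The members' median log2 fold change was -0.22, against -0.11 over all genes. The classes were mixed: GABA-A had 5 members lower and 1 higher of 9, kainate 2 higher and 1 lower of 5, AMPA and NMDA 1 in each direction, GABA-B 1 higher of 2, and no metabotropic receptor was called. Of the 6 members also known in astrocytes, 1 was higher (Gabbr2) and 1 lower (Gabrg1).

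Gria1, an AMPA subunit of excitatory synapses, had 277, 224, 281, 278 and 224 CPM in uninjured cortex IP, against 60.5, 68.1, 119, 61.0 and 119 CPM in uninjured cortex input. Every IP library lay above every input library, and the log2 fold change was 1.27 (SE 0.25, adjusted p = 0.00155). Grin1 had 403, 540, 448, 522 and 505 CPM in IP, against 103, 146, 299, 150 and 201 CPM in input, a log2 fold change of 1.10 (SE 0.24, adjusted p = 0.00318) with groups that did not overlap. The kainate subunits Grik5 (116 ± 19.3 in IP, 39.9 ± 26.0 CPM in input) and Grik3 (152 ± 43.5 in IP, 67.0 ± 26.0 CPM in input) rose by 1.20 and 0.90 on the log2 scale, again without overlap. Gabbr2, the subunit of the GABA-B receptor that couples to the G protein, rose by 0.90 (SE 0.25, adjusted p = 0.0131), with 456 to 636 CPM in IP and 138 to 379 CPM in input. Gabrd, the delta subunit of extrasynaptic GABA-A receptors, rose by 1.70 (SE 0.58, adjusted p = 0.0391) at a low level of 31.4 ± 10.2 CPM in IP and 7.92 ± 8.25 CPM in input, and its groups overlapped. The calls of Gria1, Grin1 and Gabbr2 were kept in all 10 fits that left out 1 library each. Those of Gabrd and Grik3 were lost in 7 and 6 of the 10 fits (adjusted p up to 0.0991 and 0.133), with IP as well as input libraries among those left out, and that of Grik5 was lost without IP replicate 3 (adjusted p = 0.0518).

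The members that fell included the alpha subunits Gabra2 (-1.22), Gabra4 (-0.95) and Gabra5 (-1.10) and the gamma subunits Gabrg3 (-1.20) and Gabrg1 (-1.48). Gabrg3 had 41.0, 89.0, 77.1, 83.1 and 83.6 CPM in IP, against 110, 209, 97.5, 121 and 136 CPM in input, and was the 1 called-lower gene whose groups stood apart. Gabrg1, known in astrocytes, had 5.47 to 13.5 CPM in IP and 10.8 to 27.3 CPM in input. Grik2, a kainate subunit, fell by 1.13 and Gria4, an AMPA subunit, fell by 0.96 on the log2 scale. Grin2d, an NMDA subunit with low levels in the adult forebrain, had 15, 4.73, 15.2, 10.6 and 9.95 CPM in IP and 66.9, 44.9, 17, 12 and 52.2 CPM in input (log2 fold change -2.12, SE 0.51, adjusted p = 0.00581). Leaving out 1 library ended the call of Gabra5 in 7 of 10 fits (adjusted p up to 0.0951), of Gabrg1 in 5 (up to 0.104) and of Gabra4 without input replicate 4 (adjusted p = 0.0562), while Gabra2, Gabrg3, Grik2, Gria4 and Grin2d kept theirs in all 10. Among the members not called, the most abundant of each class were Gria2 (log2 fold change -0.49), Grik4 (0.20), Grin2b (0.19), Grm5 (-0.35), Gabrb1 (-0.29) and Gabbr1 (0.52, adjusted p = 0.0804). Gabbr1 had 381 to 549 CPM in IP and 180 to 336 CPM in input, so its groups did not overlap although it missed the threshold. Grm3, the receptor best known in astrocytes among the metabotropic members, had 119 to 153 CPM in IP and 32.1 to 119 CPM in input; its groups met near 119 CPM without crossing, and its adjusted p was 0.0816.

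A separate set of libraries, 3 from IP and 3 from input, is labelled as zones 1 to 3 of stroke cortex. There 8 members were higher and 6 lower of 32, while 28.5% of 11476 genes tested were called, 13.6% higher and 14.9% lower. Gria1, Grin1, Grik3, Grik5 and Gabbr2 were higher and Grik2, Gabra2 and Grin2d were lower in both cortical comparisons, 8 genes with 1 sign each. In stroke cortex the call was lost in 5 of 6 fits without 1 library for Gabbr2 (adjusted p up to 0.136), which was also not called with DESeq2's size factors, in 4 for Grin2d (up to 0.19) and in 2 for Gabra2 (without IP replicates 1 and 3, up to 0.0948). Gria1, Grin1, Grik2, Grik3 and Grik5 kept theirs in all 6. Grik3 had 176, 117 and 168 CPM in stroke IP and 57.0, 30.1 and 31.0 CPM in stroke input (log2 fold change 1.69, SE 0.31, adjusted p = 0.00213). Grik2 had 57.4, 48.1 and 48.1 CPM in stroke IP and 120, 179 and 114 CPM in stroke input (log2 fold change -1.70, SE 0.30, adjusted p = 0.00158). Both genes kept their groups apart.

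Called in stroke cortex and not in uninjured cortex were Grm2, Grin2c and Grin2a, higher, and Gria2, Gria3 and Grm5, lower; the difference between the stroke and uninjured comparisons was not tested. Grm2, a presynaptic receptor, had 22.3, 26.3 and 40.8 CPM in IP and 0.755, 6.69 and 4.43 CPM in input (log2 fold change 2.75, SE 0.70, adjusted p = 0.0129). Grin2c, an NMDA subunit known in astrocytes, had 12.7, 29.6 and 13.9 CPM in IP and 4.53, 0 and 3.54 CPM in input (log2 fold change 2.45, SE 0.78, adjusted p = 0.0349). Its call was lost in 4 of 6 fits without 1 library (adjusted p up to 0.213) and under the replicate block, that of Grm2 without IP replicate 2 or 3 (up to 0.0897), and that of Grin2a, Gria3 and Grm5 in 4, 4 and 5 of the 6. The Grin2a call (adjusted p = 0.0483) was also lost with DESeq2's size factors, with DESeq2 and under the replicate block. That of Grm5 was lost under the block too. Gria2, the AMPA subunit that keeps the channel closed to calcium, had 627, 540 and 588 CPM in IP and 830, 735 and 1257 CPM in input (log2 fold change -0.91, SE 0.14, adjusted p = 0.00092), a call kept in all 6 of these fits. Grm5 fell by 0.62, with an adjusted p of 0.0497 that left little margin.

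**Figure D1:**
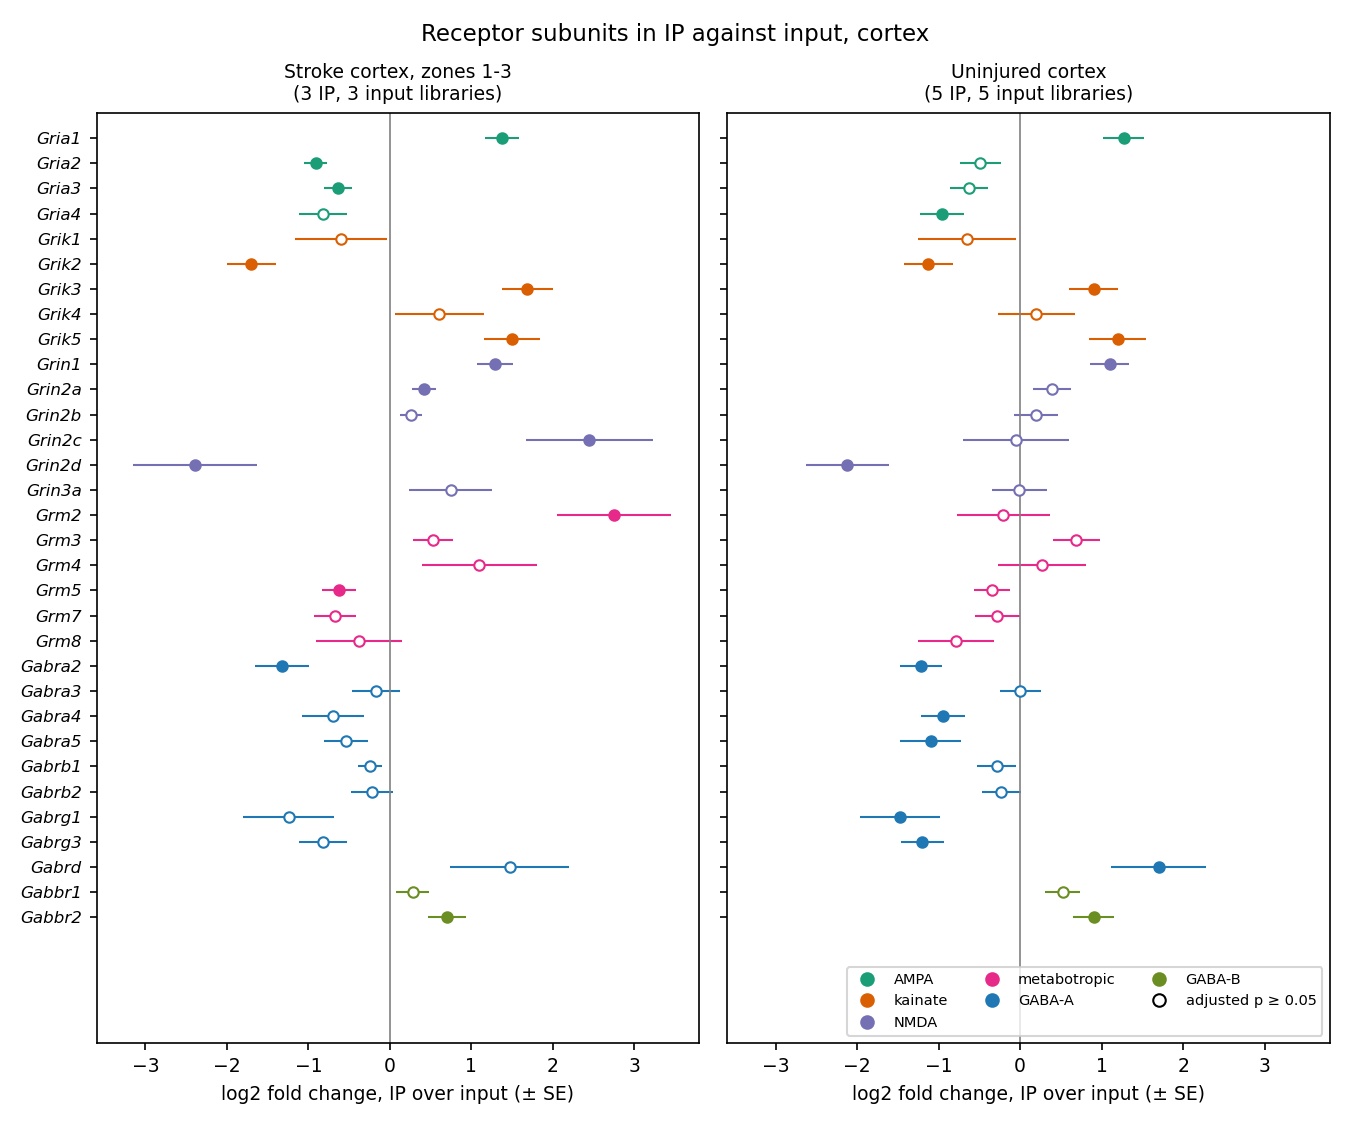
Log2 fold change of IP over input for each of the 32 subunits, with stroke cortex (zones 1 to 3, 3 IP and 3 input libraries) on the left and uninjured cortex (5 IP and 5 input libraries) on the right. Points are edgeR estimates, bars are ± 1 SE, filled points have an adjusted p under 0.05, and colours give the class; Gria1, Grin1, Grik3, Grik5 and Gabbr2 lie right of 0 and Grik2, Gabra2 and Grin2d left of 0, filled in both panels.

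Class means were taken as the mean of log2(CPM + 1) over the members of a class, on CPM without TMM scaling. GABA-B averaged 9.01 ± 0.16 in uninjured cortex IP and 7.92 ± 0.50 in uninjured cortex input, a difference of 1.09 (0.95 after TMM scaling) with groups that did not overlap. The GABA-A mean was 6.06 ± 0.26 in IP and 6.17 ± 0.41 in input (difference -0.11), with Gabrd higher and 5 subunits lower. In stroke cortex the kainate, NMDA, metabotropic and GABA-B means stood apart from input by 0.58, 0.83, 0.74 and 0.78, and the AMPA and GABA-A means differed by 0.02 and -0.05. Class means carry no test here and are descriptions.

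The members' log2 fold changes followed the G+C content of their transcripts. The 6 members called higher in uninjured cortex had transcripts of 48.5% to 62.3% G+C (median 56.4%), and the 8 called lower had 35.3% to 65.0% (median 42.6%). Across the 32 members Spearman's rho between fold change and G+C was 0.58, and across 9961 genes with a protein-coding transcript it was 0.55; in stroke cortex the values were 0.71 and 0.62. These are descriptions across genes of the same libraries, and genes are not independent replicates. Grin2d, at 65.0% G+C, fell in IP against this relation. With each library's trend on G+C entered as an offset, an alternative chosen after seeing the data, 4 members were called in uninjured cortex and 5 in stroke cortex. Gria1 was then at a log2 fold change of 1.21 and Grin2d at -3.52 in uninjured cortex, while Grin1 and Grik5 stood at -0.04 each. In stroke cortex the offset turned the direction and ended the call of Gria2 (0.29), Gabbr2 (-0.35), Grik5 (-0.07), Grin1 (-0.06) and Grm5 (0.01). Of the 14 calls in each comparison 3 were kept with it: Gria1, Grin2d and Gabrg3 in uninjured cortex, and Gria1, Grin2d and Grin2a in stroke cortex. The Grin2a call was lost in other settings, named above. Across all alternatives except fits without 1 library, the offset among them, 1645 to 7838 of all genes were called in uninjured cortex (main fit 2858). In stroke cortex 1643 to 4114 were called (main fit 3269). The share under the offset alone is not given, so the fewer member calls are not set against all genes. In stroke cortex too the input libraries carried more olfactory and vomeronasal receptor counts, 65.3 to 108.6 CPM in IP and 994.4 to 2560 CPM in input; the part of these counts in the calls was not tested.

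**Figure D2:**
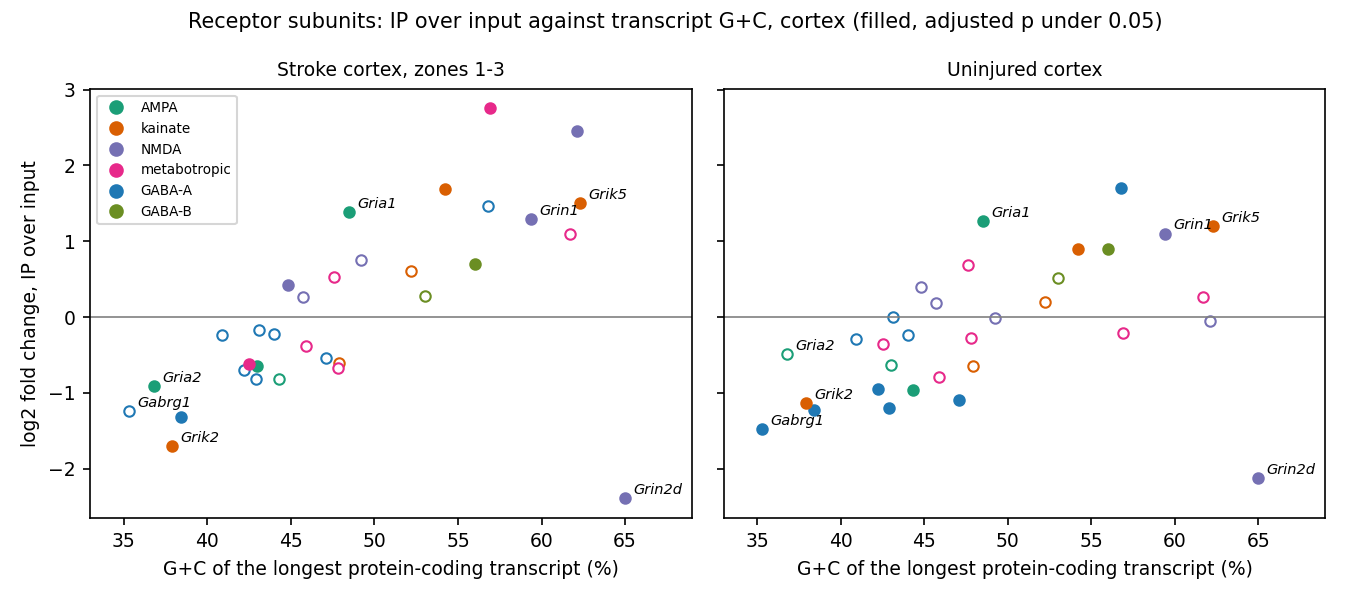
Log2 fold change of IP over input (vertical axis) against the G+C content of the longest protein-coding transcript in percent (horizontal axis) for the 32 subunits, stroke cortex on the left and uninjured cortex on the right. Each point is a subunit, filled where the adjusted p was under 0.05; the points climb with G+C, and Grin2d at 65.0% lies at -2.39 in stroke cortex and -2.12 in uninjured cortex.

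Of 24 genes for partners and anchors of these receptors, 22 were tested in uninjured cortex, where 4 were higher and 3 lower in IP. Dlg4, the scaffold PSD-95, had 420 ± 69.6 CPM in IP and 100.0 ± 24.6 CPM in input (log2 fold change 1.74, SE 0.24, adjusted p = 8.02e-05). Nlgn2, an adhesion protein of inhibitory synapses, rose by 1.66 (SE 0.27, adjusted p = 0.000388), and Neto1, an auxiliary subunit of kainate receptors, had a log2 fold change of -1.50 (SE 0.34, adjusted p = 0.00391). In stroke cortex 3 were higher and 3 lower of 22, with Dlg4 at 1.83, Neto1 at -1.52 and Homer1, a scaffold of Grm5, at -1.25. Of all genes tested 25.3% were called in uninjured and 28.5% in stroke cortex, so these counts are not results about the partners as a set. With the G+C offset 3 partner genes were called in uninjured cortex and 5 in stroke cortex. In the marker lists, 2 of 10 astrocyte and 3 of 11 neuron markers were called higher in uninjured cortex IP, and 3 of 10 and 6 of 11 in stroke cortex IP, where 1 neuron marker was lower.

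In white matter no member was called between IP and input. In uninjured white matter 27 members were tested, of which edgeR put 6 at an unadjusted p under 0.05 while DESeq2 called 2, and 0.603% of all genes were called. In zones 1 to 3 of white matter stroke together 29 were tested, of which edgeR put 3 at an unadjusted p under 0.05 while DESeq2 called 1, and 0% of all genes were called. Both shares of all genes are for edgeR's adjusted p, and those at an unadjusted p or with DESeq2 are not given. Gria1 averaged 36.9 ± 11.9 CPM in uninjured white matter IP, and Grin1 had 37.0, 32.9, 63.5, 82.2 and 113 CPM in uninjured IP and 54.6, 19.4, 8.88, 12.5 and 10.5 CPM in uninjured input, groups that overlapped. Grm3 had 188 to 292 CPM in uninjured white matter IP and 219 to 341 CPM in uninjured white matter input. Here the G+C relation was weak, with rho 0.13 across members in uninjured and 0.12 in stroke white matter.

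Cortex and white matter were compared in the uninjured IP libraries. In cortex 19 of 32 members were higher and 1, Grm3, was lower; of all 11815 genes tested 27.5% were called, 12% higher and 15.5% lower in cortex. The members' median log2 fold change was 2.07, against -0.23 over all genes. AMPA had 3 of 4 higher, NMDA 3 of 6, metabotropic 4 of 6, GABA-A 7 of 9, GABA-B 1 of 2 and kainate 1 of 5. In fits without 1 library 17 of the 20 calls were always kept, and those of Gabrg3, Gabra2 and Gabra5 were lost in 9, 8 and 4 of 10. Neuron markers were higher in cortex in 9 of 11 cases, oligodendrocyte markers were lower in 7 of 7 and astrocyte markers lower in 4 of 10. Fewer neurons, or less receptor RNA per cell, cannot be told apart in such bulk samples.

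Gria1 had 277, 224, 281, 278 and 224 CPM in cortex IP, against 19.6 to 53.1 CPM in white matter IP (log2 fold change 2.31, SE 0.29, adjusted p = 2.8e-05). Grin1, the core NMDA subunit, had 403 to 540 CPM in cortex IP and 32.9 to 113 CPM in white matter IP (log2 fold change 2.35, adjusted p = 6.4e-05). Grin2b had 1132, 1065, 1212, 1413 and 1426 CPM in cortex IP and 30.7, 39.8, 242, 201 and 209 CPM in white matter IP (log2 fold change 2.61, SE 0.47, adjusted p = 0.000676). For each of these genes every cortex library lay above every white matter library. Gabbr2 had 456 to 636 CPM in cortex IP and 5.69 to 97.6 CPM in white matter IP (log2 fold change 3.10, SE 0.56), while its partner Gabbr1 had 381 to 549 CPM in cortex IP and 175 to 470 CPM in white matter IP, overlapping groups and an adjusted p of 0.673 (log2 fold change 0.15, SE 0.23).

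Among GABA-A subunits the alpha subunit Gabra3 had 82.2 ± 16.0 CPM in cortex IP and 1.43 ± 1.52 CPM in white matter IP (log2 fold change 5.22, SE 0.73). Gabrd had 17.1 to 42.5 CPM in cortex IP and was at 0 in 4 of 5 white matter IP libraries, with 339 counts in cortex and 2 in white matter. The ratio of these pooled levels was 255 (95% exact interval 69.9 to 2110, counting error only). Gabrb1, a beta subunit, was not called; it had 187 to 334 CPM in cortex IP and 30.1 to 191 CPM in white matter IP. Kainate subunits other than Grik3 did not pass the threshold: Grik5 had 116 ± 19.3 CPM in cortex IP and 54.7 ± 9.61 CPM in white matter IP, and Grik3 had 104 to 217 CPM in cortex IP and 2.53 to 53.7 CPM in white matter IP (log2 fold change 2.63, SE 0.64, adjusted p = 0.00589).

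The metabotropic receptors separated in both directions. Grm3, which couples to inhibition of adenylate cyclase, had 133, 153, 119, 152 and 140 CPM in cortex IP, against 227, 261, 292, 224 and 188 CPM in white matter IP. All cortex libraries lay below all white matter libraries, and the log2 fold change was -1.28 (SE 0.21, adjusted p = 0.000334). Grm2, of the same subgroup, had 31.0, 15.1, 17.7, 31.5 and 25.9 CPM in cortex IP. It had 0 CPM in all 5 white matter IP libraries, 255 counts against none. Its pooled level in cortex was 128-fold over a floor of 3 counts in the white matter group, a bound that covers counting error only. Grm4 and Grm8 were higher in cortex as well (22.9 ± 8.07 and 25.5 ± 7.92 CPM in cortex IP, 0.344 ± 0.476 and 0.305 ± 0.311 CPM in white matter IP), as was Grm5 (178 ± 34.0 in cortex IP, 29.0 ± 19.4 CPM in white matter IP, log2 fold change 2.12).

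Grm2 and Grm3 share a subgroup yet lay in opposite directions, so their upstream sequences are shown (250 bases before the RefSeq gene start, GRCm38.p6). Grm2 lies at chr9:106656110-106656359 and Grm3 at chr5:9725353-9725602, both on the minus strand. Capitals mark the left arm of the RE1 element bound by the repressor REST, TTCAGCACC (searched on both strands, its reverse complement being GGTGCTGAA).
Grm2: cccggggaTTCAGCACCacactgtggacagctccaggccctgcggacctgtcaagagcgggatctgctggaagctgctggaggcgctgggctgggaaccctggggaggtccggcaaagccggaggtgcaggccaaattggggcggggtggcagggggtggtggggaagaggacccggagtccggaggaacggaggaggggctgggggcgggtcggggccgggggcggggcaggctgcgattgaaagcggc
Grm3: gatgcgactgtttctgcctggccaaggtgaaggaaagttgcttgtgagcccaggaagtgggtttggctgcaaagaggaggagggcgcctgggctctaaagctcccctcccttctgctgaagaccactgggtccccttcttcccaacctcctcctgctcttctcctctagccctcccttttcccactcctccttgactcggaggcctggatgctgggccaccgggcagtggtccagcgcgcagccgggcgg
The Grm2 sequence has 71.2% G+C and 16 CpG, with the RE1 arm starting 242 bases before the gene start, and the Grm3 sequence has 62.4% G+C, 8 CpG and no such match. The median over 32851 windows of this kind was 52.4% G+C and 6 CpG. The arm is found in 0.301% of windows, and among 30 windows of 23 members only Grm2 holds it. The cyclic AMP response element TGACGTCA is found in 1.55% of windows and in none of those 30. A match is a description, not a site.

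**Figure D3:**
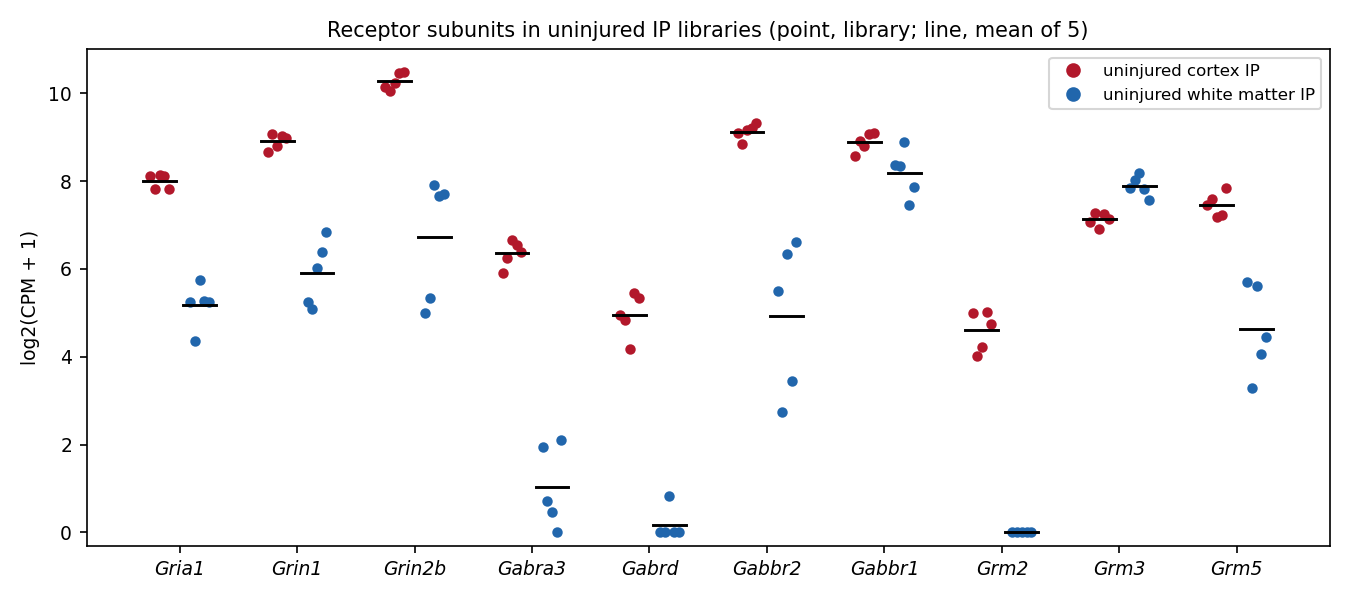
Levels of 10 subunits in uninjured IP libraries as log2(CPM + 1), with cortex (red, 5 libraries) left of white matter (blue, 5 libraries) in each pair; points are libraries and lines are means. Gria1, Grin1, Grin2b, Gabra3, Gabrd, Gabbr2, Grm2 and Grm5 lie higher in cortex without overlap, the Gabbr1 points overlap, and Grm3 lies lower in cortex.

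By class mean, cortex IP exceeded white matter IP by 2.49 for AMPA, 1.24 for kainate, 2.27 for NMDA, 3.04 for metabotropic, 3.17 for GABA-A and 2.45 for GABA-B on the log2 scale, and in all 6 the libraries of the regions did not overlap. Summing CPM before the log gave 0.71 for the metabotropic class, and Grm3 alone averaged 238 CPM in white matter IP. Of 23 partner genes tested, 9 were higher and 1 lower in cortex, beside 12% and 15.5% of all genes. Dlg4 (log2 fold change 2.55), Cacng2, an auxiliary AMPA subunit (4.71), and Neto1 (2.64) had the lowest adjusted p. Another scaling (DESeq2's size factors) moved the median of all genes by 0.15, from a base of -0.23, and left 20 members called.

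The zones of stroke cortex were each compared with uninjured cortex, which asks how receptor transcripts change with place after stroke; the 5 comparisons share the same uninjured libraries. In these no member was called: edgeR gave 0 calls with 8, 8, 0, 4 and 2 members at an unadjusted p under 0.05 in zones 1 to 5, and DESeq2 called 0, 1, 0, 0 and 0. Of all genes tested 5.30% were called in zone 1, 3.64% in zone 2, 0.0405% in zone 3, 0% in zone 4 and 0% in zone 5. These shares are for edgeR's adjusted p. The share of all genes at an unadjusted p or with DESeq2 is not given, so those member counts are not results about the members. In zone 1 the members' median log2 fold change was -0.28 and 5 of 32 were above 0, against 0.07 and 54.4% over all genes. In zone 5 the median was 0.08 and 21 of 32 were above 0, against -0.01 and 48.5% over all genes.

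In zone 1 the most abundant members of each class had log2 fold changes of -0.36 (Gria2), 0.73 (Grik3), -0.24 (Grin2b), -0.02 (Grm5), -0.30 (Gabrb1) and -0.25 (Gabbr2). Grm3 had 89.8, 78.7, 114, 86.2 and 117 CPM in zone 1, against 133, 153, 119, 152 and 140 CPM in uninjured cortex, and was the only member there whose groups did not overlap; its adjusted p was 0.152. Grin3a, an NMDA subunit that lowers calcium entry, had 14.6 to 30.3 CPM in zone 2 and 32.9 to 46.0 CPM in uninjured cortex, also without overlap (adjusted p = 0.236). The share of all genes whose groups stood apart in zones 1 and 2 is not given. Such separation is therefore not a result about the members. Gabra5, an extrasynaptic alpha subunit singled out after its value was seen, had 30.9, 39.2, 53.7, 19.7 and 52.1 CPM in zone 2 and 28.0, 95.6, 85.3, 94.0 and 64.2 CPM in uninjured cortex (log2 fold change -0.89, SE 0.26, adjusted p = 0.0529). A single fit over all cortex IP libraries, which shares the spread across zones, called 7 of 32 members in zone 1, where it called 14.3% of all genes. Kctd12, an auxiliary GABA-B subunit, was the 1 partner gene called in zone 1, where 5.30% of all genes were called. It had 95.5 ± 63.8 CPM in zone 1 and 35.3 ± 9.58 CPM in uninjured cortex (log2 fold change 1.42, SE 0.40, adjusted p = 0.041). The call was lost without any 1 of the uninjured libraries and without zone 1 replicate 2 or 3.

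Class means in zone 1 stood below uninjured cortex by 0.94 for the metabotropic class, 0.67 for NMDA and 0.56 for GABA-A on the log2 scale. The metabotropic mean was 4.33 to 5.22 in zone 1 and 5.54 to 5.91 in uninjured cortex, without overlap, and the NMDA mean was 5.67 to 6.87 in zone 1 and 6.63 to 6.97 in uninjured cortex, with overlap. The kainate mean was 5.76 in both groups. With the log of summed CPM in place of the mean of logs, the differences were -0.38 for the metabotropic class, -0.19 for NMDA, -0.25 for GABA-A and 0.38 for kainate. In zone 5 the class means differed from uninjured cortex by 0.03 to 0.29, with GABA-A highest, and all overlapped.

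**Figure D4:**
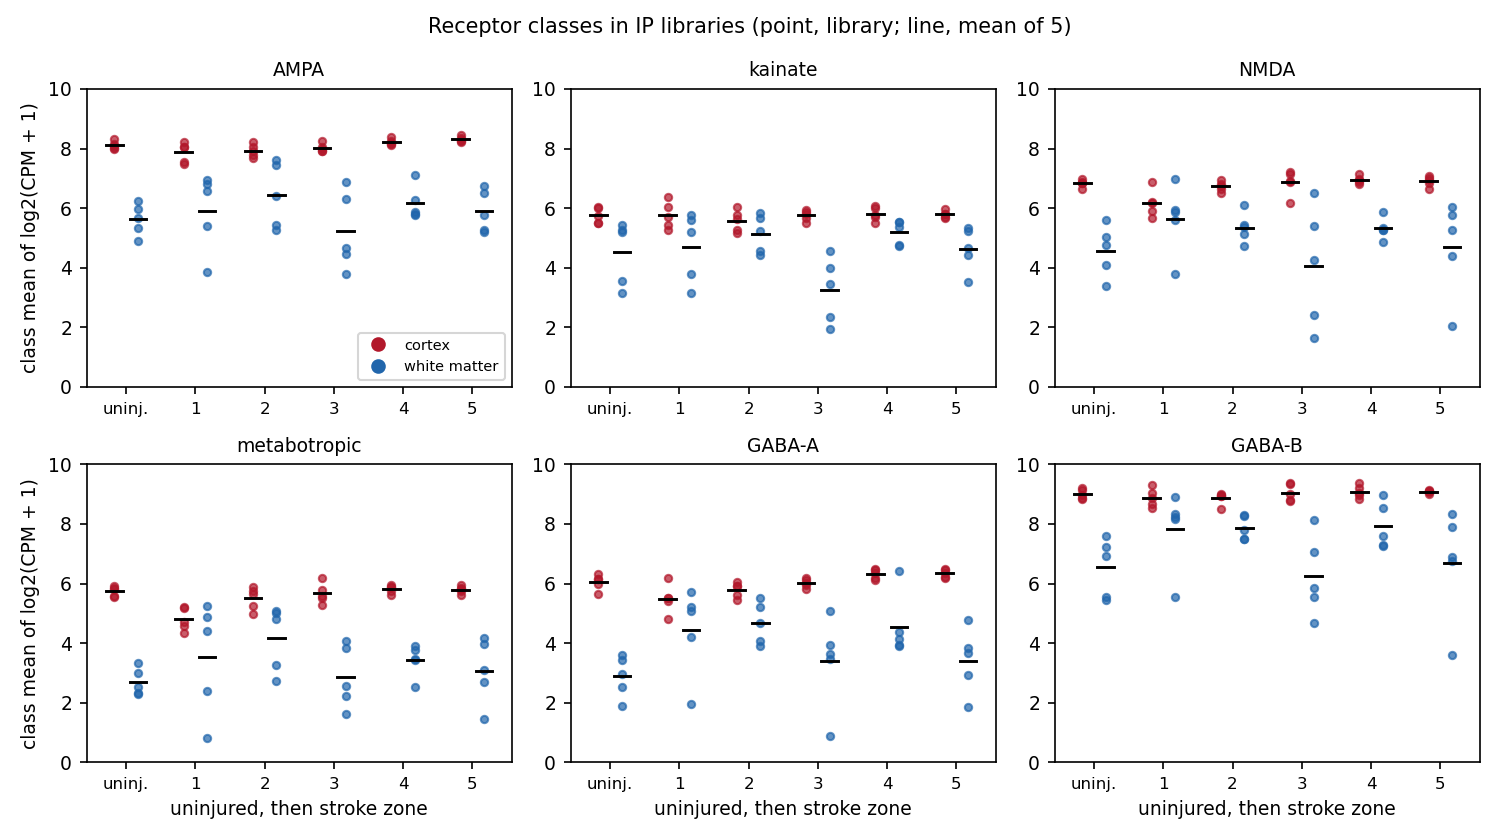
Class means of log2(CPM + 1) in IP libraries for uninjured tissue and stroke zones 1 to 5, with cortex in red and white matter in blue; points are libraries and lines are means of 5. In cortex the metabotropic points of zone 1 (4.33 to 5.22) lie below those of uninjured tissue (5.54 to 5.91), and in white matter the points spread more widely within each zone.

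Along zones 1 to 5 of cortex, taken as a numeric trend within the 25 IP libraries, 11 of 32 members rose per zone step and 0 fell, while 19.6% of 15148 genes were called, 5.90% higher and 13.7% lower. The 11 were 2 AMPA (Gria3, Gria2), 3 NMDA (Grin3a, Grin2b, Grin2a), 2 metabotropic (Grm8, Grm3) and 4 GABA-A members (Gabrg3, Gabra3, Gabra5, Gabrb1), with slopes of 0.10 to 0.44 log2 units per zone; no kainate or GABA-B member was called. Gria3 had 243 ± 79.7, 215 ± 50.5, 258 ± 54.4, 374 ± 62.4 and 390 ± 46.4 CPM in zones 1 to 5 (slope 0.21, SE 0.04, adjusted p = 0.000166), beside 317 ± 67.6 CPM in uninjured cortex. Zones 1 and 2 were the lowest for this gene, and zones 4 and 5 the highest. Gabrg3 had 52.4 ± 17.8, 50.7 ± 18.2, 73.9 ± 13.2, 110 ± 25.1 and 98.0 ± 11.5 CPM (slope 0.29, SE 0.06, adjusted p = 0.000214), and Gabra3 had 55.3 ± 23.2, 59.0 ± 15.8, 88.6 ± 33.6, 105 ± 23.1 and 106 ± 9.49 CPM (slope 0.27, SE 0.06, adjusted p = 0.00035). Both GABA-A genes were higher from zone 3 on, with neighbouring zones overlapping.

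Gabra5 rose by 0.32 per zone (SE 0.07, adjusted p = 0.000715), at 60.3 ± 48.3 CPM in zone 1, 39.1 ± 14.4 in zone 2 and 99.9 ± 23.5 CPM in zone 5; zone 1 replicate 1 stood at 144 CPM, the others at 23.8 to 56.6. Gabrb1 rose by 0.17 (SE 0.04, adjusted p = 0.000413) and Grin3a by 0.31 (SE 0.08, adjusted p = 0.00385), with 19.5 ± 10.3 CPM in zone 1 and 41.9 ± 12.5 CPM in zone 5. Gria2 and Grin2b had slopes of 0.12 and 0.11. Grm3 had a slope of 0.14 (SE 0.05, adjusted p = 0.0469), a call lost in 11 of 25 fits without 1 library (adjusted p up to 0.0957) and with DESeq2's size factors, and levels of 97.1 ± 17.2, 128 ± 35.5, 165 ± 61.2, 142 ± 19.2 and 154 ± 15.1 CPM in zones 1 to 5, beside 140 ± 14.2 CPM in uninjured cortex. Grm8, a presynaptic receptor with few counts, had the steepest slope, 0.44 (SE 0.15, adjusted p = 0.0379), and 0 to 18.4 CPM in zone 1; its call was lost in 9 of those 25 fits (adjusted p up to 0.0814). The calls of Grin2a and Grin2b were lost in 6 and 2 of them, and the other 7 members kept theirs in all 25. Of these 7, Gria2 was not called without zone 1, without zone 5 or with the G+C offset. Grin3a was not called without zone 1, nor Gabrb1 with the offset. Neither Grm3, Grm8 nor Grin2a was called without the shallow library.

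**Figure D5:**
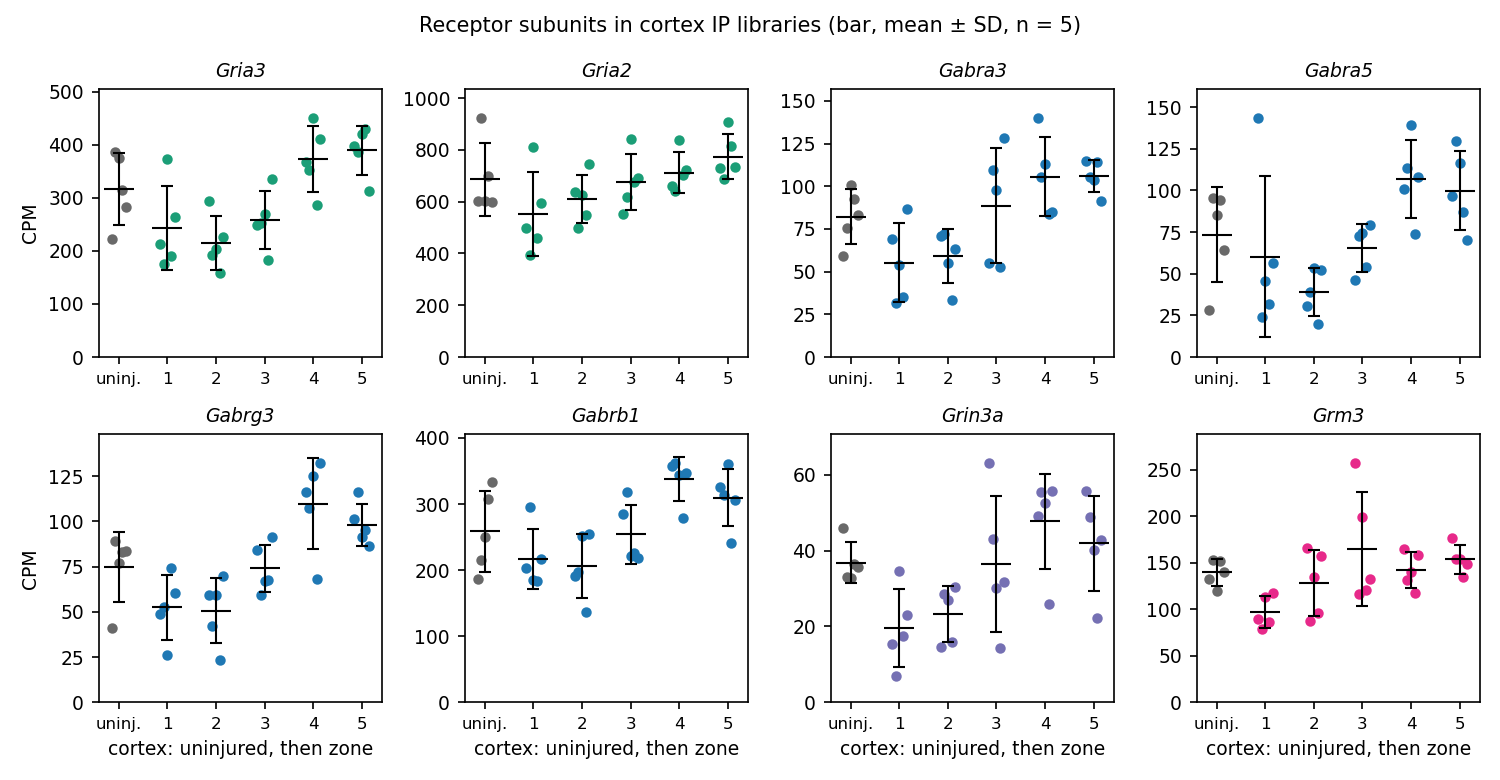
CPM of 8 subunits in cortex IP libraries, uninjured tissue (grey) and then zones 1 to 5; points are libraries and bars are mean ± SD of 5. Gria3, Gabra3, Gabrg3 and Gabrb1 lie lowest in zones 1 and 2 and highest in zones 4 and 5, and Grm3 in zone 1 (78.7 to 117 CPM) lies below all uninjured libraries.

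The trend also runs with the makeup of the libraries. Along the zones 7 of 7 oligodendrocyte, 8 of 8 microglia and 5 of 5 oligodendrocyte precursor markers fell, 6 of 10 astrocyte markers fell and 1 rose, and 2 of 11 neuron markers rose. The oligodendrocyte sum was 4630 to 7417 CPM in zone 1 and 1197 to 2176 CPM in zone 5, the microglia sum was 1076 to 1921 CPM in zone 1 and 113 to 174 CPM in zone 5, and the neuron sum was 9641 to 15656 CPM in zone 1 and 13344 to 16702 CPM in zone 5; the part of these in the result was not tested. With the G+C offset 5 members were called (Gria3, Gabra3, Grin3a, Gabrg3 and Gabra5), and without zone 1, zone 4 or zone 5 there were 7 each. Across all alternatives except fits without 1 library, 1728 to 4316 of all genes were called, against 2964 in the main fit. The share under each of these alternatives is not given. Same-numbered libraries of different cortex zones deviated together more than others did. The main trend fit took the libraries as independent, so its p-values do not allow for this. With the replicate number as a block all 11 members were called as well. Of 24 partner genes 6 rose and 5 fell, beside 5.90% and 13.7% of all genes. Cacng4, an auxiliary AMPA subunit, and Kctd12 had slopes of -0.35 and -0.34 log2 units per zone.

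In white matter the zones varied widely between libraries of 1 zone. Grik3, a kainate subunit, was the 1 member called: it had 156, 374, 180, 139 and 92.8 CPM in zone 2, against 6.87, 2.53, 19.2, 6.24 and 53.7 CPM in uninjured white matter (log2 fold change 3.12, SE 0.68, adjusted p = 0.0276), where 0.941% of genes were called. The groups did not overlap. The call was lost in 5 of 10 fits that left out 1 library each, among them uninjured replicates 1, 2 and 4 and zone 2 replicates 2 and 3, and in a single fit over all white matter IP libraries. Grik3 also spread widely elsewhere, with 3.93 to 422 CPM in zone 1 and 122 to 1756 CPM in zone 5. All zone 5 libraries too lay above all uninjured libraries, but the gene was not called there. The share of all genes whose groups stood apart is not given. The neuron sum was 2207 to 7039 CPM in zone 2 and 676 to 1851 CPM in uninjured white matter, and its part in this result was not tested.

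No member was called in the other zones: edgeR gave 11, 2, 9 and 5 members at an unadjusted p under 0.05 in zones 1, 3, 4 and 5 (and 8 in zone 2), and DESeq2 called 5, 0, 3 and 0 (and 5 in zone 2). Of all genes 0.450% were called in zone 1, 0% in zone 3, 0.0666% in zone 4 and 0% in zone 5. Across zones 1 to 5 the white matter trend called 0 of 32 (3 at an unadjusted p under 0.05, DESeq2 0), with 1.93% of all genes called. These shares are for edgeR's adjusted p. The share of all genes at an unadjusted p or with DESeq2 is not given, so those member counts are not results about the members. Grm3 had 0.785 to 298 CPM in zone 1 and 188 to 292 CPM in uninjured white matter, overlapping groups. Gria2 had 200.0 to 465 CPM in zone 1 and 72.0 to 196 CPM in uninjured white matter, and was the 1 member of zone 1 whose groups stood apart. The share of all genes that stood apart is not given here either. By class mean, GABA-A stood at 4.68 ± 0.69 in zone 2 and 4.56 ± 1.06 in zone 4, against 2.89 ± 0.70 in uninjured white matter. These differences of 1.79 and 1.67 came without overlap, and those of zones 1, 3 and 5 (1.55, 0.52 and 0.53) with overlap. The other classes overlapped uninjured white matter in every zone, with differences from -1.26 (kainate, zone 3) to 1.49 (metabotropic, zone 2). The neuron sum of white matter zones ran to 12936 CPM in zone 1 replicate 3 and 13143 CPM in zone 4 replicate 3, above the 1851 CPM of the highest uninjured library.

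A test of whether the zone 1 response differed between cortex and white matter called 1 of 32, Grm4, at -6.33 log2 units (SE 1.63, adjusted p = 0.0386), with 1.88% of genes called. Grm4 had 16.7 ± 11.5 CPM in zone 1 cortex and 22.9 ± 8.07 CPM in uninjured cortex, and 0 to 116 CPM in zone 1 white matter and 0 to 1.15 CPM in uninjured white matter. The uninjured white matter libraries held 5 counts for it in all, and the call of Grm4 was lost in 14 of 20 fits without 1 library (adjusted p up to 0.126) and under the replicate block. Those fits called 0 to 12 members and 92 to 866 of all genes. Without the shallow libraries 11 members and 6.36% of all genes were called.

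Reads on several members may not be theirs alone, since it is not given whether counting used the strand. Grin1, Grin2d, Grm2 and Gabra5 overlap the exons of the antisense genes Grin1os, Gm45441, Gm28111 and Gm9962 by 1307, 643, 470 and 148 bases, and Gabra4 and Gabrb1 overlap each other by 46 bases on opposite strands.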

How the data were processed

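Astrocyte-enriched and input RNA of laser-captured mouse brain was amplified with NuGEN Ovation RNA-Seq V2 and sequenced as paired 50-base reads, per the labels' protocols. The deposited table holds raw gene counts (whole numbers). The submitters' processing notes name GRCm38 (mm10) as the build. Which aligner, counter, annotation and strand setting the authors used is not given in the sources used here. IP libraries are labelled polyA RNA and input libraries total RNA. Columns were matched to libraries by name, reading L as white matter and M as cortex; 0 columns were left unmatched, and 48349 of 48795 identifiers had a symbol.

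Each comparison was fitted on the libraries of its own groups with edgeR 4.0.16 in R 4.3.3 (TMM scaling, genes with at least 10 counts in enough libraries and 15 in all, robust quasi-likelihood test, Benjamini-Hochberg adjustment over all genes tested, threshold 0.05). The SE was the log2 fold change divided by the root of F. The zone trend took zone number as a numeric term. DESeq2 1.42.0, other scaling, no filter, a replicate block, single fits, and fits without single libraries or without the shallow ones were alternatives. CPM, class means (pseudocount 1) and figures were made in Python 3.11.15 with pandas 2.3.3, scipy 1.17.1 and matplotlib 3.10.9. The edgeR step was tested on simulated data. Depth limits genes with few counts. Counting floors were set at 3 counts and intervals at 95%.

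The members and lists were chosen with earlier results of these data known. Named with a fold change are called members, the most abundant uncalled member of each class, and up to 3 partner genes with the lowest adjusted p. Same-numbered libraries were not treated as pairs. The rule for pairing was that every same-number correlation of deviations exceeded 0.1. It was met in none of the comparisons with uninjured tissue or input. Among pairs of zones it was met in 1 of 10 in cortex (zones 3 and 4) and 0 of 10 in white matter. The rule does not exclude pairing among cortex zones, where 3 to 5 of 5 libraries correlated best with their own number. No pair of libraries in a group agreed within sampling noise (chi-square over degrees of freedom at least 3.16 among 152 pairs).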

Additional observations from a re-analysis of the deposited data

Results flagged for a closer look

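In 84 groups of class means, a library far from the other 4 was flagged 3 times; chance flags about 1 group in 20. The GABA-A mean of white matter zone 4 replicate 3 was 6.41, while the other libraries of that zone lay at 3.90 to 4.38, and the same library had the highest neuron marker sum of its zone, 13143 CPM. The GABA-B mean of white matter zone 1 replicate 1, a shallow library, was 5.55, while the others lay at 8.18 to 8.90. The GABA-B mean of cortex zone 2 replicate 4 was 8.5, while the others lay at 8.93 to 8.99. The zone 1 response of Grm4 differed between cortex and white matter by -6.33 log2 units in the test of the difference itself, with 5 counts in all in uninjured white matter; the call was lost in 14 of 20 fits that left out 1 library each and under the replicate block.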

How the results depend on the processing

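Depth limits genes with few counts, among them Grm4, with 5 counts in uninjured white matter. Chosen after seeing the data were the G+C offset and the fits without a zone. With the G+C offset the called members numbered 4 in uninjured cortex IP against input, 5 in stroke cortex and 5 in the cortex zone trend, and 3 partner genes were called in uninjured cortex. It turned the direction of Gabbr1 (-0.0006), Gabrb1 (0.34), Gria2 (0.57), Grik4 (-0.19), Grik5 (-0.04), Grin1 (-0.04) and Grm5 (0.16) in uninjured cortex, and of Gabbr2 (-0.35), Gria2 (0.29), Grik5 (-0.07), Grin1 (-0.06) and Grm5 (0.01) in stroke cortex; the cause was not tested. Without zone 1, 4 or 5 the trend called 7 members each, and without zone 1 or 5 it called 4 and 6 partner genes.

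Without the low-count filter 1 member was called in white matter IP against input in uninjured tissue and 1 in stroke tissue, 1 in cortex zone 2, 6, 1, 6 and 1 in white matter zones 2 to 5 and 7 in the zone 1 difference between regions. Partner genes then numbered 1 in stroke white matter IP against input, 2 and 1 in cortex zones 1 and 2, and 1, 2, 4 and 1 in white matter zones 1, 3, 4 and 5. DESeq2 called 2 and 1 members in IP against input of uninjured and stroke white matter, 1 in cortex zone 2, 5, 5 and 3 in white matter zones 1, 2 and 4 and 9 in the zone 1 difference; partner genes numbered 1 and 1 in the white matter IP comparisons, 3 in cortex zone 1 and 3, 3, 1 and 4 in white matter zones 1 to 4. DESeq2's size factors gave 3 members in the zone 1 difference and 1 partner gene in the white matter trend. A single fit per region called 7 members and 6 partner genes in cortex zone 1, 0 members and 0 partner genes in white matter zone 2 and 1 partner gene in white matter zone 3. Without shallow libraries 4 members and 4 partner genes were called in white matter zone 1. There were 11 and 4 in the zone 1 difference and 2 partner genes in cortex zone 1, where Grm5 stood at 0.13. The share of all genes is given above for cortex zone 1 in the single fit and for the zone 1 difference without shallow libraries. For the other settings it is not given, so these counts are not results about the members. Across the alternatives except fits without 1 library, up to 589 of all genes were called in white matter zone 1 (main fit 47). Up to 430 were called in zone 3 (main fit 0) and 335 in zone 4 (main fit 7).

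By the labels same-numbered libraries share only a number: correlations of their deviations were -0.02 to 0.19 in uninjured cortex IP and input, where 2 of 5 correlated best with their own number, and 0 to 3 of 5 did so for zones against uninjured tissue. Between zones the correlations were -0.02 to 0.27 in cortex, where 3 to 5 of 5 correlated best with their own number, and -0.11 to 0.20 in white matter, where 0 to 4 of 5 did. In every pair of cortex zones the median same-number correlation was above the median for other numbers. The values ran from 0.03 against -0.01 (zones 1 and 4) to 0.18 against -0.05 (zones 4 and 5). For the cortex zones that is more than a hint of pairing, from the data and not from the design. In white matter it is a hint at most. The main trend fit took the libraries as independent, so its p-values do not allow for such pairing. The cortex trend kept all 11 calls under the block. The replicate block called 15 members in uninjured cortex IP against input, 11 in stroke cortex and 1 in stroke white matter. It called 2 in cortex zone 1, 1 in each of white matter zones 4 and 5 and 1 partner gene in the zone 1 difference. The share of all genes under the block is not given, and the block was not fitted for cortex against white matter.

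Class means turned on how members were combined. With the log of summed CPM the NMDA difference was 0.75 in uninjured cortex IP against input, 0.70 in stroke cortex, 1.46 in stroke white matter, -0.19 in cortex zone 1, 1.62, 1.63 and 1.48 in white matter zones 2, 4 and 5 and 3.27 in cortex against white matter. The metabotropic difference was 0.16 in stroke cortex IP against input, -0.38 in cortex zone 1, -0.66 and -0.002 in white matter zones 1 and 2 and 0.71 in cortex against white matter (3.47 with a pseudocount of 0.5). The kainate difference was 0.38 and 0.15 in cortex zones 1 and 2 and 1.54 in white matter zone 5, and for cortex against white matter GABA-A stood at 2.15 and GABA-B at 1.63. With the mean of logs, the NMDA differences in white matter zones 2, 4 and 5 were 0.78, 0.76 and 0.13. The metabotropic ones in white matter zones 1 and 2 were then 0.84 and 1.49, and the kainate one in zone 5 was 0.11.

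Leaving out single libraries gave 9 to 16 called members in uninjured cortex IP against input (9 without input replicate 4), 6 to 19 in stroke cortex (6, 7 and 8 without IP replicates 3, 1 and 2), 0 to 1 in uninjured white matter, 0 to 1 and 0 to 2 in cortex zones 1 and 2, 0 to 3, 0 to 1 and 0 to 1 in white matter zones 1, 2 and 5 and 0 to 12 in the zone 1 difference. Partner genes numbered 5 to 10 in stroke cortex IP against input, 0 to 4 and 0 to 2 in cortex zones 1 and 2, 0 to 2 in white matter zone 1, 0 to 1 in the white matter trend and 0 to 4 in the zone 1 difference. In these fits all genes called numbered 2232 to 3661 in uninjured cortex IP against input and 1515 to 4953 in stroke cortex. They numbered 5 to 275 in white matter zone 1 and 92 to 866 in the zone 1 difference. Single folds ranged from -0.04 to 0.43 for Grik4 and -0.03 to 0.37 for Grin2b in uninjured cortex, and from -0.10 to 0.13 for Grm5 in cortex zone 1.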
